A study of Mus musculus with 9 samples.

Results

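The ephrins and Eph receptors examined here were *Efna1*, *Efna4*, *Efna5*, *Efnb1*, *Efnb2*, *Epha1*, *Epha4*, *Ephb2*, *Ephb3* and *Ephb6*. They are the rows of the count tables with these names, 10 of the 22 ephrin and Eph receptor genes and of 23366 gene entries in all. They were chosen by their measured levels in the 9 libraries and by the ratios between the culture media at P10 and P25 (P stands for passage), so differences between media are described for them without a test. The fits of passage and of line use the same libraries, so their p-values for these genes are not independent of the choice. RNA-seq was performed on mSGc, a line of submandibular gland epithelial cells from adult C57BL/6 mice (12 weeks old, male) that became immortal spontaneously in culture, and on IMOK, a spontaneously immortalized line of oral keratinocytes from mice of the same strain and age. mSGc were grown as monolayers in serum free medium with dexamethasone (SFM) at P2, P4, P10 and P25, and in serum containing medium with retinoic acid, hydrocortisone and triiodothyronine (SCM) at P10 and P25, with 1 library for each condition. The labels call the media Progenitor and Differentiating, read here as SFM and SCM respectively, since the earliest passages carry the name Progenitor only. Both media contain epidermal growth factor and insulin, and SFM also contains fibroblast growth factor. IMOK were sequenced as 3 replicates in a medium of their own, so line, medium and experiment cannot be told apart between the lines. The labels give no passage for IMOK, but the study states that they were analyzed at P10 and compared them with mSGc of that passage. The labels do not say whether these replicates came from separate cultures, so p-values measure only the spread between these libraries.

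Ephrins are ligands that stay on the surface of the cell that makes them, and Eph receptors are receptor tyrosine kinases on the neighboring cell. Ephrin-A proteins are held by a lipid anchor and bind mostly EphA receptors, whereas ephrin-B proteins cross the membrane and bind mostly EphB receptors, with *Epha4* able to bind both kinds. Contact signals into both cells, into the receptor cell through its kinase and into the ephrin-B cell through the tail of the ligand. In epithelia the system is known for keeping cell populations apart and for placing boundaries.

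Libraries held between 6237884 and 18444963 counted reads, and 3 reads corresponded to between 0.163 and 0.481 CPM (counts scaled to the library total). The epithelial markers *Krt5*, *Krt14*, *Krt8*, *Krt18*, *Trp63*, *Cdh1* and *Epcam* were all at or above 1 TPM (reads per gene length, scaled to the same total in every library) in all 9 libraries, and their sum ran from 13135 to 24097 TPM over the mSGc libraries (IMOK, 10068 to 11719). The 5 acinar markers summed to 3.02 to 70.6 TPM in mSGc, where 1 of them reached 1 TPM in every library (*Aqp5*), and to 129 to 213 TPM in IMOK. Of 7 fibroblast and 6 endothelial markers, 0 reached 1 TPM in every mSGc library. Among the IMOK libraries, replicate 1 was distant. Its median absolute log2 difference was 0.48 from replicate 2 and 0.60 from replicate 3, and these differed from each other by 0.21.

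Of the 10 genes, 9 were at or above 1 TPM in each of the 6 mSGc libraries, and 9 were in each IMOK library. By the median over the mSGc libraries, *Epha1* was the most abundant at 96.1 TPM, followed by *Efna4* at 50.2, *Efnb1* at 48.3 and *Efna1* at 47.0. The ranges of these 3 ligands overlapped, so their order is not resolved. *Ephb3* at 28.7, *Efna5* at 24.9 and *Ephb6* at 23.9 TPM also overlapped with each other, and *Efnb2* at 13.8, *Epha4* at 7.78 and *Ephb2* at 0.145 TPM came last. The evenness of the levels differed between genes. Within mSGc *Efna4* spanned 1.41-fold and *Efnb1* 1.58-fold from the lowest to the highest library, while *Epha4* spanned 4.64-fold, *Ephb6* 4.75-fold and *Efnb2* 40.0-fold.

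**Figure D1:**
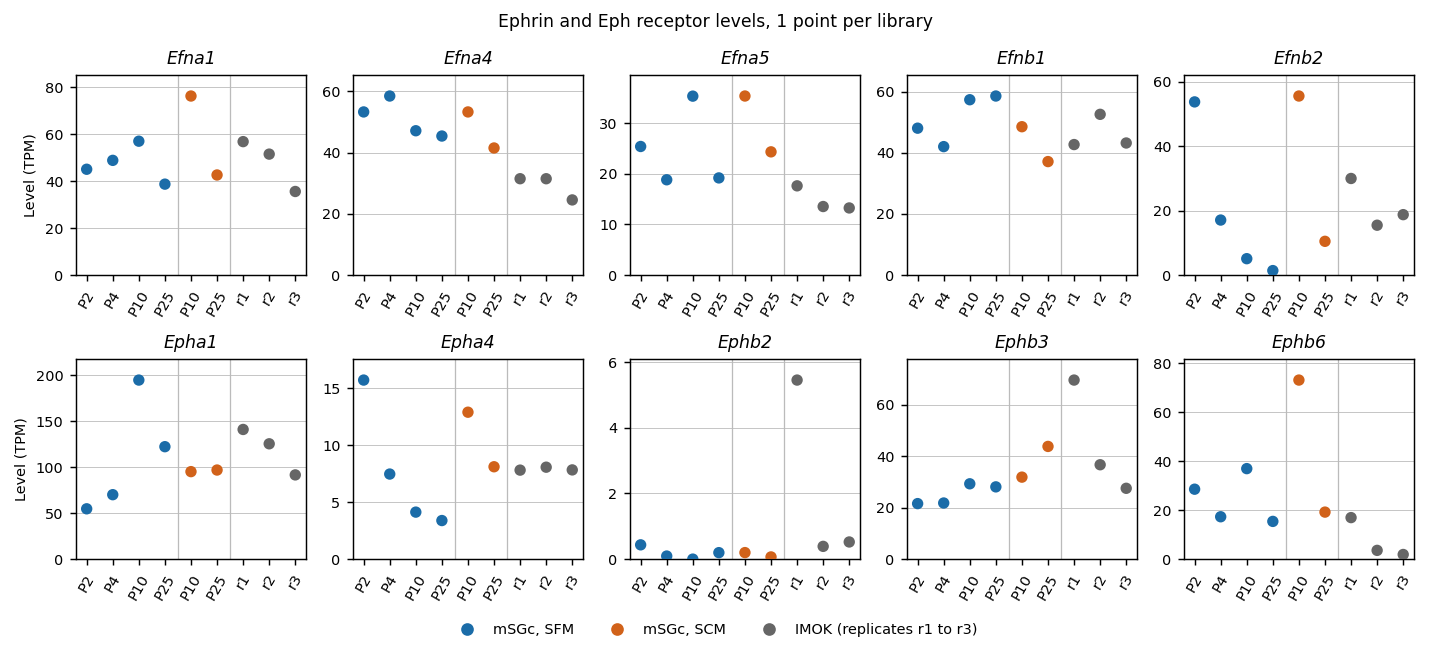
Level of each of the 10 genes in TPM (y axis, linear from 0, a scale of its own for each gene) in each library (x axis: mSGc passages in SFM in blue, in SCM in orange, IMOK replicates in grey), 1 point per library. *Efnb2* runs from 1.39 to 55.5 TPM within mSGc, and in *Ephb2* a single IMOK library stands at 5.45 TPM above all others.

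The promoter windows of *Efnb2* and *Epha4* are shown because these were the 2 members at least 2-fold higher in SCM than in SFM at both passages. They are RefSeq windows of build GRCm38.p6, from 250 bases before to 50 bases after the start of the gene, and capitals mark each CG pair.
Efnb2 (chr8:8661193-8661492, minus strand): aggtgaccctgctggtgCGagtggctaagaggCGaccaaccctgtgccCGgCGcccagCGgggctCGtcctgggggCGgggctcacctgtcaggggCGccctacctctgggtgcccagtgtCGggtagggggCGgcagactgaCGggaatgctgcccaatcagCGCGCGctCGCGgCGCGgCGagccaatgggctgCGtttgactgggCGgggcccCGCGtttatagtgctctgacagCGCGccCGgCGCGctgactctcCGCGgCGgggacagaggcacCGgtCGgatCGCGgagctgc
Epha4 (chr1:77515039-77515338, minus strand): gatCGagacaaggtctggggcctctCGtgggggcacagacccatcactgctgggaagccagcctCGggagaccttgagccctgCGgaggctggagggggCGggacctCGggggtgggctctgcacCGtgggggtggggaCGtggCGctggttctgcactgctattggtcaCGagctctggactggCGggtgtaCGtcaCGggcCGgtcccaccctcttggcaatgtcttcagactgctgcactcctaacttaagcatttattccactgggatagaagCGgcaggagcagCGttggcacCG
The *Efnb2* window holds 35 CG pairs and the *Epha4* window 17, against a median of 7 over 32851 windows of the same length. Fewer CG pairs than in the *Efnb2* window were found in 93.0% of all windows, and fewer than in the *Epha4* window in 68.6%. The windows of the other members held from 11 (*Efna4*) to 38 (*Efna5*) CG pairs, with 34 in that of *Ephb6*. A high number was thus not particular to the 2 members shown. The letters AGGTCA, the half-site of several nuclear receptors including those for retinoic acid and thyroid hormone, were found on either strand in 16.3% of all windows. The letters AGAACA, a half-site of the glucocorticoid receptor, were found in 19.0%. Neither was found in the 11 windows of the 10 members, which says only that these letters are not there.

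In SCM the most different of the ligands was *Efnb2*, which encodes a transmembrane ephrin known as a marker of arterial endothelium. The gene lies on chromosome 8 from 8617439 to 8660773 of mm9, on the minus strand, in 5 exons. At P10 the SFM library had 5.08 TPM and the SCM library 55.5, and at P25 the values were 1.39 and 10.5 TPM. These levels rest on 101 and 1518 counts at P10 and on 51 and 142 counts at P25. The log2 ratio of SCM over SFM in normalized CPM was 3.30 at P10 and 2.68 at P25, or 9.85-fold and 6.42-fold. Both SCM libraries were thus above the SFM library of the same passage, although the SCM library at P25 lay below the SFM libraries at P2 and P4. *Epha4*, a receptor for both kinds of ephrin on chromosome 1 (77363760 to 77511663), showed 4.12 TPM in SFM against 12.9 in SCM at P10, and 3.38 against 8.10 at P25. Its log2 ratios were 1.503 and 1.08, or 2.83-fold and 2.11-fold. A 2-fold or larger difference in this direction at both passages was found for these 2 of the 9 members with enough counts, and for 2.54% of the 12451 genes tested. At P10 alone the same 2 members were past 2-fold higher, against 8.65% of all genes, and at P25 alone they were again, against 4.69%. Nothing is read from these counts, since the contrast was used to choose the genes.

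The other members differed less between the media. *Epha1*, the receptor with the highest level among the members, was lower in SCM at P10. There the SFM library had 195 TPM and the SCM library 95.3, a log2 ratio of -1.16. At P25 the values were 122 and 97.0 TPM, a ratio of -0.51. It was the only member past 2-fold in this direction at P10, where 6.51% of all genes were, and 0 members were past it at P25, where 6.41% were. *Ephb6*, an Eph receptor whose kinase domain is inactive, had 37.0 TPM in SFM against 73.2 in SCM at P10 (log2 ratio 0.85) and 15.4 against 19.2 at P25 (0.14). *Efnb1*, the other transmembrane ligand of the group, was lower in SCM at both passages by less than 2-fold, with log2 ratios of -0.37 and -0.83. *Efna1*, *Efna4*, *Efna5* and *Ephb3* had ratios between -0.30 and 0.47 and lay on opposite sides of 0 at P10 and P25. *Ephb2*, with at most 11 counts in an mSGc library, was too low for this comparison. The median log2 ratio of the 9 members was 0.0471 at P10 and 0.14 at P25, against 0.0286 and -0.0123 for all genes tested.

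**Figure D2:**
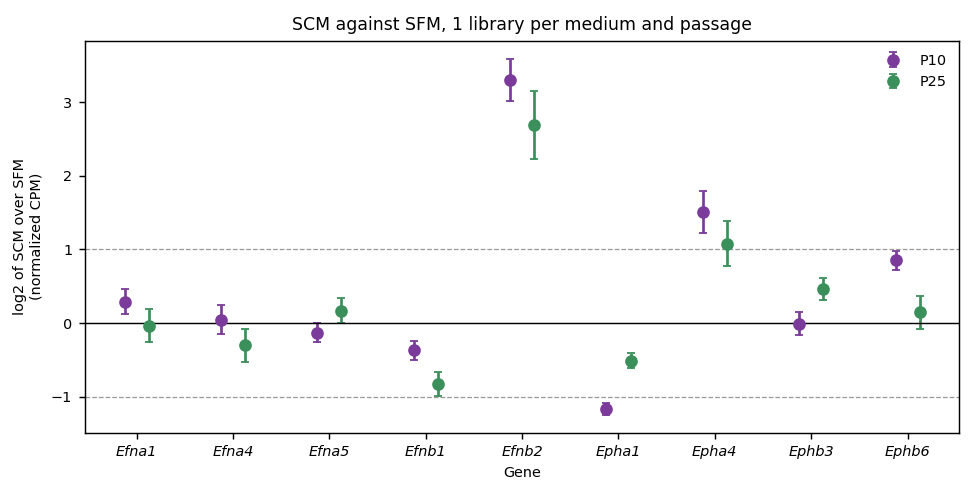
Log2 ratio of SCM over SFM in normalized CPM (y axis) for 9 members (x axis) at P10 and P25, 1 library per medium and passage. Bars are 95% intervals for counting error alone and dashed lines mark 2-fold. *Efnb2* and *Epha4* lie above the upper line at both passages, with the *Epha4* bar at P25 crossing it, and *Epha1* lies below the lower line at P10.

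Levels of some markers differed between the media in the same direction as *Efnb2*. In bulk RNA a change in the share of a cell type cannot be told apart from a change in RNA per cell. The simple epithelial keratin *Krt8*, a marker of ductal cells, measured 672 TPM in SFM and 3743 in SCM at P10, and 1172 and 2154 at P25. *Krt18*, its partner keratin, measured 738 and 3299 TPM at P10 and 516 and 1847 at P25. Both were highest at P2, with 6326 and 4548 TPM, where *Efnb2* was at 53.7 TPM. In SFM *Krt8* was higher at P25 than at P10, whereas *Krt18* (516 against 738 TPM) and *Efnb2* (1.39 against 5.08 TPM) were lower. Of the 7 epithelial markers 4 were higher in SCM at both passages (*Krt8*, *Krt18*, *Cdh1* and *Epcam*), while *Krt14* and *Trp63* differed in direction between passages. The basal keratin *Krt5* was lower in SCM at both, with 9214 against 3910 TPM at P10 and 9386 against 2559 at P25. The acinar water channel *Aqp5* was higher, with 1.40 against 18.0 TPM at P10 and 12.7 against 20.9 at P25. At P2, where *Efnb2* was high, it was at 2.80 TPM. The other acinar markers did not share this difference at both passages. *Amy1* was at 1.55 against 3.38 TPM at P10 and at 0 in both media at P25. *Bhlha15* was at 0.0622 against 0 TPM and at 0.0673 against 0. *Prol1* and *Smgc* were at most at 0.101 TPM in the P10 and P25 libraries. The summed level of the 7 fibroblast markers was 0.874 TPM in SFM and 4.26 in SCM at P10, 0.320 and 4.48 at P25, and 19.1 at P2, and *Lum* had no counts in 4 of the 6 libraries. The largest part of the SCM sum was *Dcn* at P10 (3.79 TPM) and *Col3a1* at P25 (2.29 TPM). These and *Col1a2* were higher in SCM at both passages, while *Col1a1* was lower (0.555 against 0.202 TPM, and 0.225 against 0.136). The part of these markers in the *Efnb2* difference was not tested. The endothelial markers, relevant because endothelium expresses *Efnb2*, summed to 0 to 1.04 TPM in the mSGc libraries. Their sum was 0.208 TPM in SFM and 0.519 in SCM at P10, 0.869 and 0 at P25, and 1.04 at P2. *Kdr* was at 0.0399 against 0.232 TPM at P10, at 0 in both media at P25, and at 0.520 at P2. *Pecam1* was at 0.0658 against 0.287 TPM at P10 and at 0.819 against 0 at P25. *Tek* and *Tie1* were lower in SCM at P10 (0.0467 and 0.0561 against 0 TPM). *Cdh5* and *Emcn* had no counts in 5 of the 6 libraries, the exception being P4. The part of the endothelial markers in the *Efnb2* difference was not tested either.

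Passage was tested in a fit of medium and log2 passage number over the 6 mSGc libraries, with 3 residual degrees of freedom. These libraries are passages of the same line, with 1 library per condition. The p-values therefore measure the spread around this fit, not that between independent cultures. Along the SFM series *Efnb2* was lower at each step, with 53.7, 17.1, 5.08 and 1.39 TPM at P2, P4, P10 and P25, a 38.7-fold difference between the ends. Its SCM values of 55.5 and 10.5 TPM at P10 and P25 differed 5.31-fold. The fitted change was -1.41 on the log2 scale per doubling of the passage number (standard error 0.10, edgeR adjusted p = 0.00700). Of the 9 members tested 1 fell past the threshold and 0 rose past it (4 had an unadjusted edgeR p under 0.05), and of all genes tested 0.49% passed, with 0.442% falling and 0.0482% rising. The fit includes the P10 and P25 libraries whose ratios chose the members, so nothing is read from this count. The size of the change stayed between -1.49 and -1.37 when single libraries were left out. The call was lost without P2 (edgeR adjusted p = 0.279), without P4 (0.0501) and without P25 in SFM (0.0777). The 694 tested genes of its chromosome had a median change of 0.0894 per doubling.

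The *Epha4* values along the SFM series were 15.7, 7.46, 4.12 and 3.38 TPM. Its log2 change of -0.53 per doubling (standard error 0.10) did not pass, with an edgeR adjusted p of 0.0896, while DESeq2 gave an adjusted p of 0.00169. It also passed without P10 in SFM (edgeR adjusted p = 0.0442). The values of *Epha1* went the other way, with 54.8 TPM at P2, 70.2 at P4, 195 at P10 and 122 at P25 in SFM. Its change of 0.44 per doubling (standard error 0.15) had an unadjusted edgeR p of 0.0225 and an adjusted p of 0.277. *Ephb3*, a receptor known from the intestinal crypt, had 21.6, 21.8, 29.3 and 28.1 TPM along the same series and a change of 0.21 (edgeR adjusted p = 0.341). The remaining members, *Efna1*, *Efna4*, *Efna5*, *Efnb1* and *Ephb6*, had changes between -0.19 and 0.13 per doubling. The median of the 9 members was -0.0456, against 0.00 for all genes tested.

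**Figure D3:**
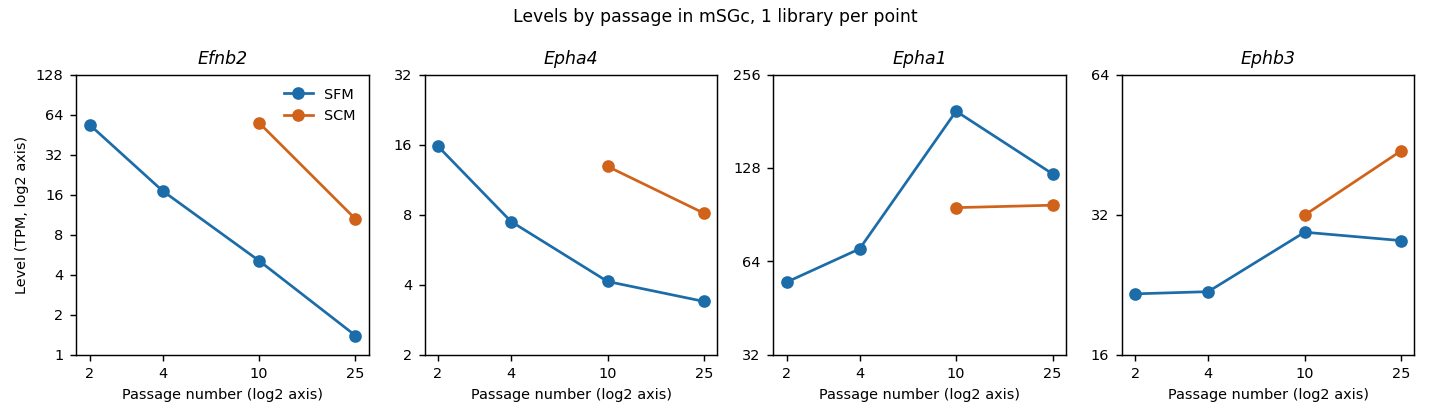
Levels of *Efnb2*, *Epha4*, *Epha1* and *Ephb3* in TPM (y axis, log2 scale) against the passage number (x axis, log2 scale) in mSGc grown in SFM (blue) and SCM (orange), 1 library per point. *Efnb2* runs from 53.7 down to 1.39 TPM in SFM, and its SCM points at P10 and P25 lie above the SFM points of the same passages.

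Between the lines, 6 mSGc libraries were compared with 3 IMOK libraries. The mSGc libraries span P2 to P25, so this comparison also holds passage. In the fit matched in passage, with the P10 mSGc libraries only, 547 of 13018 genes and 1 member were called. That member was *Efna5* (log2 fold change 1.44, edgeR adjusted p = 0.0237). The values that follow are from all 6 mSGc libraries unless stated. Of the 10 members 2 were higher and 1 was lower in mSGc at an edgeR adjusted p under 0.05, where 14.9% of 12885 genes tested passed, 6.58% higher and 8.3% lower. Both higher members encode lipid-anchored ligands. *Efna4* (chromosome 3, 89137315 to 89141950) was at 53.3, 58.5, 47.1 and 45.4 TPM in SFM from P2 to P25, at 53.3 and 41.5 in SCM, and at 31.5, 31.5 and 24.5 in IMOK. All mSGc libraries lay above all IMOK libraries. The log2 fold change was 1.00 (standard error 0.18, edgeR adjusted p = 0.00572). *Efna5* (chromosome 17, 62952306 to 63230666) was at 25.4, 18.8, 35.3 and 19.2 TPM in SFM, at 35.4 and 24.3 in SCM, and at 17.6, 13.5 and 13.3 in IMOK. Again the lines did not overlap, and the log2 fold change was 1.04 (standard error 0.21, edgeR adjusted p = 0.0105). These 2 were the members without overlap, in a direction in which 5.22% of all genes tested do not overlap. *Efna5* lost its call without IMOK replicate 2 (edgeR adjusted p = 0.0616), and *Efna4* with the P10 libraries only (0.0683). *Efna1*, the third ephrin-A member, was at 38.8 to 76.3 TPM in mSGc and at 48.0 ± 11.1 TPM (SD, n = 3) in the other line. Its log2 fold change of 0.32 had an edgeR adjusted p of 0.338.

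For *Ephb2* and *Ephb6*, the 2 EphB members with the largest fold changes among the 10 genes, the values turned on IMOK replicate 1. *Ephb2*, on chromosome 4 from 136209525 to 136391850, had 11, 4, 0 and 8 counts in SFM and 6 and 1 in SCM, against 222, 16 and 20 counts in IMOK. The corresponding IMOK levels were 5.45, 0.388 and 0.522 TPM, and 1 mSGc library (P2, 0.435 TPM) lay within their range. The log2 fold change was -3.34 (standard error 0.95, edgeR adjusted p = 0.0414), and without IMOK replicate 1 it was -1.28 with an edgeR adjusted p of 0.350. Leaving out any other library except P2 also ended the call, with edgeR adjusted p-values from 0.0521 to 0.0845. The call was lost with voom as well (adjusted p = 0.102), and DESeq2 gave no adjusted p. *Ephb2* passed the filter on low counts through IMOK alone, so it could be tested only because it was higher there. *Ephb6* (chromosome 6, 41555481 to 41570506) was at 28.6, 17.3, 37.0 and 15.4 TPM in SFM, at 73.2 and 19.2 in SCM, and at 17.0, 3.58 and 1.89 in IMOK. Only IMOK replicate 1 overlapped with mSGc. Its log2 fold change of 2.32 (standard error 0.70) narrowly missed the threshold, with an edgeR adjusted p of 0.0503, and was 3.65 without replicate 1 of IMOK (edgeR adjusted p = 0.00882). It also passed with DESeq2 (adjusted p = 0.00140), with voom (adjusted p = 0.0227) and without a filter (edgeR adjusted p = 0.0422). In 13 of 17 alternatives it stayed uncalled. *Ephb6* belongs to the list of mSGc genes that the study chose partly on these libraries, so its direction is not independent evidence.

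The remaining members overlapped between the lines. *Ephb3* was at 21.6 to 43.9 TPM in mSGc and at 44.7 ± 22.2 TPM (SD, n = 3) in IMOK, where replicate 1 was the highest at 69.7. *Efnb1*, which lies on chromosome X, was at 37.1 to 58.6 TPM against 46.2 ± 5.57, with a log2 fold change of 0.30 (edgeR adjusted p = 0.364). *Epha4* was within 7.81 to 8.06 TPM in the 3 IMOK libraries, a narrower spread than in mSGc, where it ran from 3.38 to 15.7. *Efnb2* in IMOK was at 30.0, 15.5 and 18.7 TPM, between the SFM extremes of mSGc, and its log2 fold change of 0.31 had a standard error of 0.86. Genes on chromosome 8, which the karyotype in the study found abnormal in mSGc, had a median log2 fold change of 0.35, against 0.00 over all genes. The genes of chromosome 4, where *Ephb2* lies, had a similar median of 0.31. A part of the chromosome in the *Efnb2* levels was not tested. *Epha1* was at 54.8 to 195 TPM against 119 ± 25.3 in IMOK, and its log2 fold change of 0.0699 (standard error 0.37) changed sign without TMM factors, which scale libraries to each other (-0.0497). Without that scaling the median of all genes was -0.10 in place of 0.00. The median log2 fold change of the 10 members was 0.30.

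**Figure D4:**
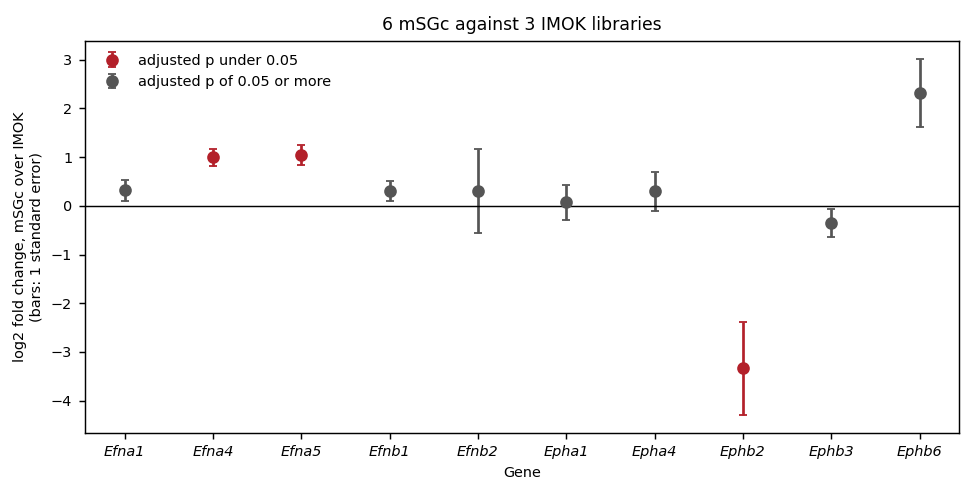
Log2 fold change of mSGc over IMOK (y axis) for the 10 members (x axis) from 6 and 3 libraries, with bars of 1 standard error and members at an edgeR adjusted p under 0.05 in red. *Efna4* and *Efna5* lie near 1, *Ephb2* at -3.34, and *Ephb6* at 2.32 is not among the called genes.

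Of the other 12 genes of the family, 7 could be tested and 2 were higher in mSGc than in IMOK, while 0 were lower by edgeR (3 of the 7 had an unadjusted p under 0.05 in either direction), beside 6.58% of all genes higher and 8.3% lower. *Efna3*, an ephrin-A gene next to *Efna4* on chromosome 3, was at 39.8 to 107 TPM in mSGc and at 22.6, 12.7 and 9.27 in IMOK, without overlap. Its log2 fold change of 2.51 (standard error 0.38, edgeR adjusted p = 0.00257) passed in all 17 alternatives. *Ephb1*, an EphB receptor, was at 0.121, 1.89, 6.57 and 4.21 TPM in SFM and at 1.79 and 0.751 in SCM, against 0.302, 0 and 0.0267 in IMOK. Its log2 difference of 4.82 (standard error 1.45) had an edgeR adjusted p of 0.0498, and the call was lost in 11 of 16 alternatives. With 12, 0 and 1 counts in IMOK it passed the filter on low counts through mSGc alone, so it could be tested only because it was higher there. Both genes are on the list that the study chose partly on these libraries. *Ephb1* was also the 1 tested gene of these 7 that was at least 2-fold lower in SCM at both passages, with log2 ratios of -1.95 and -2.55, whereas 2.0% of all genes were. By passage and between media 0 of the 7 were called in either direction by edgeR (1 had an unadjusted p under 0.05 in each). Between media the same fit called 0.0241% of all genes, all of them higher in SCM.

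Among 39 genes that carry or shape Eph and ephrin signals, 37 could be tested between the lines, of which 2 were higher and 4 lower in mSGc, beside 6.58% and 8.3% of all genes. *Sdcbp*, which encodes syntenin, a scaffold that binds ephrin-B tails, was at 158 to 282 TPM in mSGc and at 108 to 138 in IMOK (log2 fold change 0.87, edgeR adjusted p = 0.0185). *Nck1*, an SH2 adaptor used by Eph receptors, had a log2 fold change of 0.76 (edgeR adjusted p = 0.0282). The lower genes were *Rgs3*, a regulator that binds ephrin-B, at -1.06, *Itsn1*, an exchange factor for Cdc42, at -0.85, the small GTPase *Rac1* at -0.79, and *Ptpn13*, a phosphatase that binds ephrin-B, at -0.68. *Itsn1* was at 3.91 to 4.51 TPM in mSGc and at 7.22 to 11.5 in IMOK. Without IMOK replicate 2 all of these except *Itsn1* lost their call. With passage 1 of 36 tested fell and 0 rose by edgeR (3 had an unadjusted p under 0.05), beside 0.49% of all genes called. It was *Kalrn*, the exchange factor kalirin, with 1.93, 0.546, 0.116 and 0.0348 TPM along the SFM series (log2 change per doubling -1.64, standard error 0.20, edgeR adjusted p = 0.0382). At P25 it had only 5 counts in each medium, and leaving out any library except P10 in SFM ended its call (edgeR adjusted p-values from 0.0651 to 0.407). Between media 0 of the 36 were called in either direction by edgeR (1 had an unadjusted p under 0.05).

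Among the genes nearest to *Efnb2* in their profile over the 9 libraries were *Kif26b* and *Cldn4*, at a root mean square difference of 0.44 and 0.58 between mean-centered log2 normalized CPM, among 12440 genes. *Cldn4*, a tight junction claudin, ran from 824 TPM in the P2 library down to 42.3 in P25 SFM, and its P10 values were 137 TPM in SFM and 661 in SCM. *Epha4* was 75th in this order, the nearest of the tested family genes, at 0.98. In the order from *Epha4*, however, *Efnb2* was 9456th at the same difference, and the nearest family gene was *Epha2* (878th, 0.55). For *Epha4* itself the nearest genes were *Gm13238* (0.20), *Fam107b* (0.21) and *Serinc5* (0.25), and for *Ephb6* they were *Hist3h2a* (0.43), *Shpk* (0.44) and *Slc22a18* (0.45).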

How the data were processed

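RNA was sequenced by the authors from 6 mSGc and 3 IMOK libraries made with a TruSeq kit. Per the labels, the authors mapped reads to mm9 with TopHat2 2.1.1 and Bowtie2 2.2.6 and deposited raw read counts per gene made with featureCounts 1.5.1, without normalization. The annotation, the strand setting and the treatment of reads with several matches are not given in the sources used here. No exon of a member overlapped another gene, and all 10 members matched their locus in GENCODE vM1. Library totals ran from 6237884 to 18444963 reads, and limits from counts cover counting error only.

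The deposited counts and gene lengths gave TPM. Tests used R 4.3.3 and edgeR 4.0.16 (quasi-likelihood test, TMM, filterByExpr, Benjamini-Hochberg adjustment over all genes, threshold 0.05), fitted as mSGc against IMOK and as medium plus log2 passage within mSGc. An edgeR adjusted p means this test. Standard errors are the absolute log2 change divided by the square root of F. Media were compared within a passage as log2 ratios of TMM-normalized CPM with a prior count of 2, without replicates. Alternatives included DESeq2 1.42.0, voom (limma 3.58.1), other filters and scalings, and leaving out libraries.

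All 10 members were named. Other family genes and signalling genes were named when called, at most 5 per direction, or 2-fold different between media at both passages, and for 3 members the 3 nearest profiles, of which 1 is not reported here. The highest other gene of each class was also named. The members and lists were chosen with earlier results of these data known. Entries whose names had become dates (27) or were repeated (4) were kept as they stood.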

Additional observations from a re-analysis of the deposited data

Results flagged for a closer look

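4 members had a log2 ratio of SCM over SFM with one sign at P10 and the other at P25. With 1 library per medium and passage the difference between passages was not tested. *Efna1* had 0.29 at P10 and -0.0341 at P25. *Efna4* had 0.0471 and -0.30, *Efna5* -0.13 and 0.17, and *Ephb3* -0.0071 and 0.47. None of these ratios reached 2-fold.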

How the results depend on the processing

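No paired analysis was possible because the mSGc libraries carry no replicate number to match with IMOK, while SCM and SFM share P10 and P25 and were also fitted by passage. Between the lines 3 members were called, 1 with the P10 libraries only and 1 (without IMOK replicate 2) to 3 with a library left out. For all genes the count of 1918 became 2900 with DESeq2, 547 with the P10 libraries only and 738 (without IMOK replicate 2; 943 without replicate 3) to 1918 with a library left out. With passage 1 member was called, 2 with DESeq2 and 0 (without P2, P4 or P25 in SFM) to 2 (without P10 in SFM) with a library left out. For all genes the 61 calls with passage became 700 with DESeq2, 161 without a filter, 3 with at least 10 counts in every library, 126 with an untransformed passage number, 31 in SFM only and 0 (without the P2 or the P25 SFM library, where 697 and 957 had an unadjusted p under 0.05) to 329 with a library left out. Between media 3 of all genes were called, 272 with DESeq2, 36 without a filter, 1 with at least 10 counts, 0 with voom (1074 at an unadjusted p under 0.05), 123 when P10 and P25 alone were fitted with passage as the block, and 0 (without P2, P4, P10 SCM or P25 SFM, 442 to 772 at an unadjusted p under 0.05) to 58 (without P10 SFM) with a library left out. At 1.5-fold in place of 2-fold 1 member in place of 0 was lower in SCM at P25, and 3 in place of 2 were higher at P10. Of the values near 0, the line change of *Efnb2* was -0.47 with voom and -0.0940 to 0.56 with a library left out, that of *Epha1* -0.0497 without TMM factors, -0.0484 with voom and -0.19 to 0.21 with a library left out, and that of *Ephb3* -0.57 to 0.0360 with a library left out. With passage *Efna1* was at 0.0146 in SFM only and -0.18 to 0.0199 with a library left out. *Efna5* was at -0.0131 without TMM factors, -5.2e-05 with at least 10 counts, -0.0038 with voom, -0.0088 per passage untransformed and -0.0515 to 0.14 with a library left out. The cause of these changes was not tested. Without replicates a ratio between media has no error beyond counting, and the depth limits *Ephb2* most.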

Other observations

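Summed over the family, the 5 ephrin-A genes reached 165 to 250 TPM in the mSGc libraries against 84.9 to 134 for IMOK, without overlap. The sum over *Efna1*, *Efna4* and *Efna5* alone overlapped, with 103 to 165 TPM in mSGc and 73.4 to 106 in IMOK. The 3 ephrin-B genes reached 49.8 to 106 TPM against 63.8 to 73.5. The 9 EphA genes ranged from 163 to 296 TPM against 231 to 249, and the 5 EphB genes from 89.8 to 175 against 87.0 to 200. Among genes outside the 10 members, *Epha2*, an epithelial EphA receptor, was at 62.8 to 109 TPM in mSGc and 83.6 to 127 in IMOK. *Ephb4*, the main receptor of ephrin-B2, was at 48.7 to 67.4 TPM in mSGc, a range of 1.38-fold beside the 40.0-fold range of *Efnb2*. *Efnb3*, the remaining ephrin-B gene, was at 0.999 to 2.18 TPM in mSGc.

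*Epha7*, an EphA receptor that was singled out after its values were seen, was at 2.32, 2.87, 0.710 and 0.325 TPM in SFM from P2 to P25, at 4.94 and 0.680 in SCM at P10 and P25, and at 3.37, 13.6 and 13.3 in IMOK. Its log2 fold change between the lines was -2.22 with an edgeR adjusted p of 0.0646. *Epha3*, *Epha5*, *Epha6*, *Epha8* and *Epha10* had at most 39 counts in any library. *Epha3* had 39, 5 and 7 counts in IMOK and at most 1 in mSGc.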
